A study of Mus musculus with 6 samples.

Results

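The genes described here encode the kinases and ubiquitin enzymes that sit between inflammatory receptors and the IκB kinases. They are the 10 genes Map3k7, Tab1, Tab2, Tab3, Map3k14, Map3k8, Rnf31, Rbck1, Sharpin and Cyld, taken by symbol from a deposited table of 27240 genes. Each symbol matched 1 row, and all 10 passed the filter on low counts. Poly(A) RNA was sequenced from mouse primary peritoneal macrophages, phagocytes of the abdominal cavity, in 3 wild-type (WT) and 3 knockout (KO) libraries. Every library came from cells labelled as treated with oxLDL (oxidised low-density lipoprotein, a modified lipoprotein that macrophages take up), which the titles shorten to LDL. No library without oxLDL was used here, so the values compare genotypes under oxLDL and not a response to it. The series title names the kinases DCLK1 and IKKβ, and the labels give the genotype as KO without naming the gene, the deleted part, a Cre driver, a strain or an age. Whether the replicates are different animals or different cultures is not stated in the labels, and each p-value below reflects the spread among these 6 libraries, which could be technical.

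TAK1, the product of Map3k7, is a kinase activated when its partners TAB2 or TAB3 bind lysine-63-linked ubiquitin chains. TAB1 binds TAK1 and promotes its activation, and active TAK1 phosphorylates IKKβ and the kinases above JNK and p38. The linear ubiquitin chain assembly complex, or LUBAC, joins ubiquitin head to tail onto receptor complexes. Its catalytic subunit is HOIP (Rnf31), with HOIL-1 (Rbck1) and SHARPIN as partners. CYLD is a deubiquitinase that removes linear and lysine-63-linked chains. NIK (Map3k14) is the kinase of the non-canonical NF-κB arm, in which TRAF3 keeps its protein level low. TPL2 (Map3k8) is the kinase that leads from Toll-like and TNF receptors to ERK and is held by p105, the product of Nfkb1.

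Total counts ran from 68053008 to 79090732 per library. Dclk1 was at 7.27, 6.70 and 7.43 CPM (counts made comparable between libraries by TMM scaling) in WT and at 5.55, 5.89 and 5.15 CPM in KO libraries, so transcripts of the gene were still counted in KO libraries (log2 fold change -0.37, SE 0.116, edgeR adjusted p = 0.332). The 6 macrophage markers were all detected and summed to 12634 to 13473 FPKM (fragments scaled for gene length and library size) in WT and to 7406 to 7463 FPKM in KO libraries, with Lyz2 as the 1 that passed, lower in KO. Without Lyz2 the other 5 summed to 1919 to 1992 FPKM in WT and 1972 to 1992 FPKM in KO libraries, which overlapped. Marker sums were at most 3.87 FPKM for T cells, 1.13 for B cells, 1.85 for mast cells, 6.31 for dendritic cells and 6.89 for fibroblasts with mesothelium. The neutrophil sum of 26.7 to 34.0 FPKM came nearly all from S100a8, and Ly6g had a count of 0 in every library. Summed levels were lower in every KO than in every WT library for T cell (2.58 to 2.82 against 3.18 to 3.87 FPKM) and dendritic cell markers (3.93 to 5.12 against 5.18 to 6.31). The same held for fibroblast and mesothelial (4.81 to 5.91 against 6.30 to 6.89) and neutrophil markers (26.7 to 29.7 against 30.2 to 34.0). The B cell sum was higher in every KO library (0.622 to 1.13 against 0.317 to 0.537). No tested marker of these lists passed, and of the 5 neutrophil markers only 1 was tested. The part of such cells in the values below was not tested, and in bulk RNA fewer cells of a type and less RNA per cell cannot be told apart.

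RefSeq promoter windows of GRCm38.p6, from 250 bases before to 50 after a transcription start, were given for 7 of the 10 genes as 9 windows. A match to the κB consensus, the binding sequence of NF-κB, was sought on both strands and found in 2 of the 9 windows, those of Map3k7 and Cyld. A match was held by 8.46% of all 32851 windows. These 2 stretches are shown because their windows held a match. Each is printed 5′ to 3′ on its own strand and ends 50 bases before the start, and the capitals mark the match, which in both lies on the opposite strand. The Map3k7 stretch is the plus strand of chr4:31963857-31964056 and the Cyld stretch the plus strand of chr8:88696778-88696977.
Map3k7: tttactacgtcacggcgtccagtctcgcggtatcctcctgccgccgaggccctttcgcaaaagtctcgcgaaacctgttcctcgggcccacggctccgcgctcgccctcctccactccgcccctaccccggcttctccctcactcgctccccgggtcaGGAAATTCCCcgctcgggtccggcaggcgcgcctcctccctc
Cyld: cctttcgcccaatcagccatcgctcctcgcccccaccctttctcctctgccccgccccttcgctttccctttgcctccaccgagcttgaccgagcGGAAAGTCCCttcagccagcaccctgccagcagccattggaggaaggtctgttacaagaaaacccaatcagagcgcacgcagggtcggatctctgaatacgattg
The match begins 92 bases before the Map3k7 start and 155 bases before the Cyld start. A match describes these letters and does not show binding.

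All 10 genes were expressed in every library. Compared per length, the order of mean FPKM over the 6 libraries was Tab2 (18.9 ± 0.851, SD, n = 6), Rbck1 (10.2 ± 0.463), Map3k7 (9.93 ± 2.61), Sharpin (5.32 ± 0.355), Tab1 (4.73 ± 0.274), Map3k8 (4.32 ± 0.863), Rnf31 (4.08 ± 0.286), Tab3 (3.69 ± 0.243), Cyld (2.91 ± 0.273) and Map3k14 (2.26 ± 0.0587). Tab2 lay above 86.8% of all tested genes and Map3k14 above 48.1%. Only Tab2 at the top and Map3k14 at the bottom had a range of FPKM that did not overlap that of the gene next to it in the order. Sharpin exceeded Tab1, Rnf31 exceeded Tab3 and Tab3 exceeded Cyld in 6 of 6 libraries, although their ranges overlapped. Rbck1 was above Map3k7 in only 2 libraries, and Map3k8 was above Rnf31 in 4, so those neighbours did not differ beyond their spread. The place and range of Map3k7 in this order include WT replicate 3, at 4.65 FPKM against 10.5 to 11.4 FPKM in the other libraries. The raw counts behind these levels ran from 1154 to 10080 per gene and library, which puts the counting error of a single value at 2.94% or less.

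**Figure D1:**
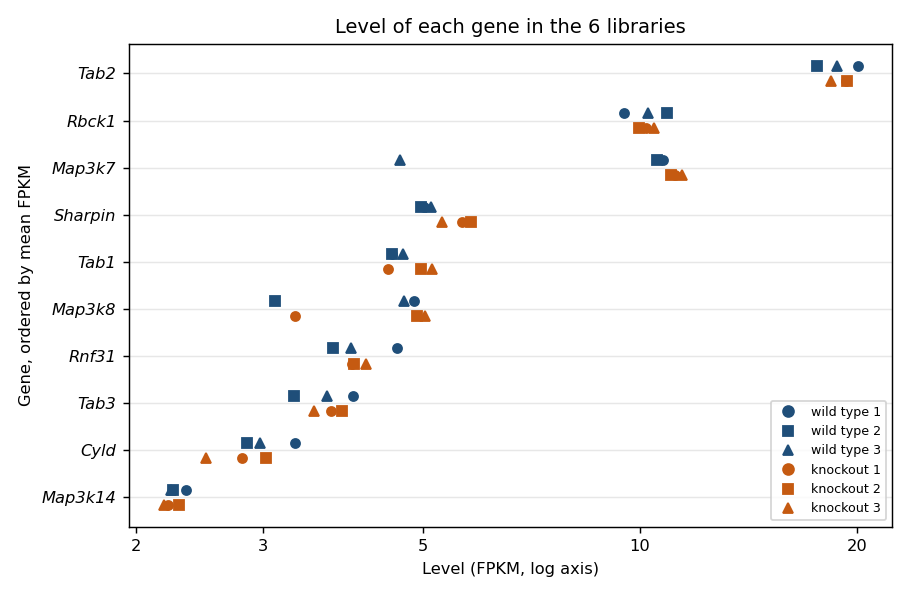
Level of the 10 genes (vertical, ordered by mean) in FPKM on a log axis (horizontal), with WT libraries in blue above and KO libraries in orange below, and the marker shape giving the replicate number. Tab2 is at 17.6 to 20.03 FPKM throughout, Map3k14 is near 2.26 FPKM, and the single Map3k7 point at 4.65 FPKM is WT replicate 3.

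No gene of the 10 passed the comparison of KO with WT. EdgeR's quasi-likelihood test called 0 of 10 at an adjusted p under 0.05, where it called 0.0677% of all 16239 tested genes (11 genes). At an unadjusted p under 0.05 there were 0 of 10, against 10.4% of all tested genes. DESeq2, which called 457 genes, also called 0 of the 10, as did limma on FPKM and limma with sample weights. Fitted changes were above 0 for 6 genes and below 0 for 4, with a median log2 fold change of 0.0057, against -0.0019 over all tested genes. The groups did not overlap for 2 of the 10, Map3k7 and Sharpin, both higher in KO. Over all tested genes the groups did not overlap for 17.6%, and 8.68% were higher in KO without overlap.

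**Figure D2:**
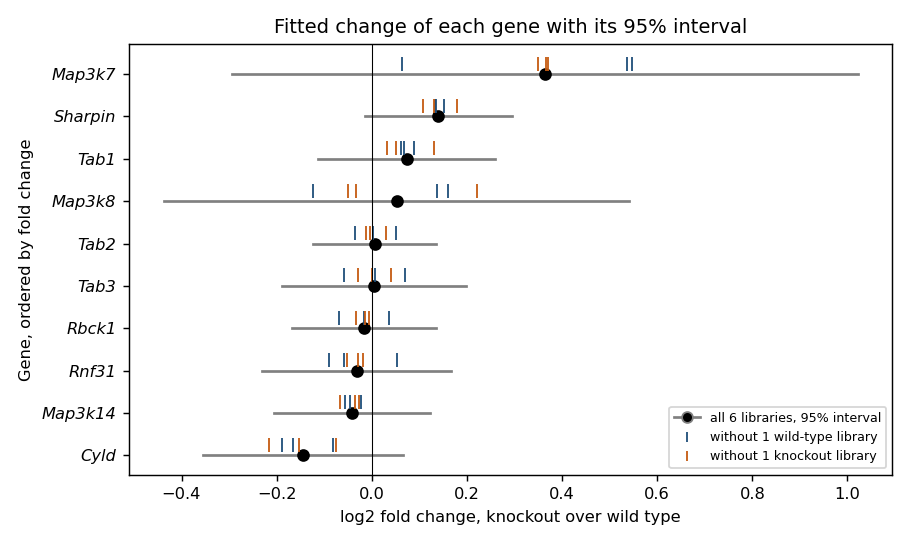
Fitted log2 fold change of KO over WT (horizontal) for each gene (vertical), with the black point and grey line giving the estimate and 95% interval from all 6 libraries. Ticks give the estimate after leaving out 1 WT (blue) or 1 KO (orange) library, and every interval includes 0. For Map3k7 the tick near 0.062 is the fit without WT replicate 3.

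Map3k7 (ENSMUSG00000028284, chromosome 4, 31964097 to 32023467, plus strand, coordinates as deposited), the gene of TAK1, was at 77.0, 76.1 and 33.3 CPM in WT libraries and at 79.6, 78.7 and 81.5 CPM in KO libraries. Of the 6 values, 5 lay within a few CPM of each other, and WT replicate 3 stood far below them. Its raw count was 2622, for which Poisson counting error alone gives a 95% interval of 2523 to 2724, while the other libraries had 5232 to 5960 counts. The next lowest library was 2.28 times higher. Its fitted log2 fold change of 0.36 had an SE of 0.281 and a 95% interval of -0.29 to 1.02 (edgeR adjusted p = 0.721). Without WT replicate 3 it was 0.062 (adjusted p = 0.764), and the remaining WT values were still below each KO value.

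The deposited FPKM of Map3k7 in that library was 4.65, against 10.5 to 11.4 FPKM in the others, so both deposited columns hold the low value. For each of the 10 genes the ratio of unscaled CPM to FPKM varied by at most 0.872% between libraries. A total of 4.50% of the 50-base sequences of Map3k7 transcripts also occur in other genes, nearly all of them in Gm8188, which had 10 to 46 counts per library. The genes Gm11926 and Gm26254 lie within Map3k7 on the opposite strand, and neither shares an exonic base with it. Single libraries with such a low value were seen in other genes too. Among 8226 tested genes with a mean of at least 10 CPM, WT replicate 3 was lower than every other library by at least 2-fold for 5 genes and higher by at least 2-fold for 5. In the other libraries those counts ran from 7 to 17 genes for lower and from 1 to 5 for higher. The origin of these values was not tested.

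The KO means of Tab1, Tab2 and Tab3, the genes of the TAK1 partners, were 105%, 100.4% and 100.4% of their WT means. Tab2 (chromosome 10, 7905653 to 7956230, minus strand) was at 137, 121 and 128 CPM in WT and at 131, 132 and 125 CPM in KO libraries. Its log2 fold change was 0.0059, with a 95% interval of -0.12 to 0.14 (edgeR adjusted p = 0.985), an interval that spans folds of 0.918 to 1.10. Tab3 (chromosome X, 85574022 to 85634469, plus strand) was at 29.6, 24.7 and 27.3 CPM in WT and at 27.5, 28.5 and 26.0 CPM in KO libraries. The KO values of both genes lay inside their WT range. The interval of the Tab3 log2 fold change was -0.19 to 0.20 (adjusted p = 0.992).

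Tab1 (chromosome 15, 80133127 to 80161707, plus strand) was at 17.0, 17.1 and 17.6 CPM in WT and at 16.7, 18.6 and 19.2 CPM in KO libraries. KO replicates 2 and 3 were above the WT range and KO replicate 1 was below it (log2 fold change 0.073, SE 0.0795, 95% interval -0.11 to 0.26, edgeR adjusted p = 0.813). TAB2 and TAB3 are related ubiquitin-binding proteins, and the level of Tab2 was 5.14 ± 0.157 times that of Tab3 in WT and 5.13 ± 0.106 times in KO libraries (ratio of FPKM, SD, n = 3 each). No 50-base sequence of Tab3 transcripts occurs in another gene and 0.388% of those of Tab2 do, so reads of the pair could be told apart over nearly all of their length.

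None of the 3 LUBAC subunit genes passed the test. Sharpin (chromosome 15, 76347040 to 76351111, minus strand) was at 21.4, 21.4 and 21.9 CPM in WT and at 24.1, 24.7 and 22.5 CPM in KO libraries. Each KO value was above each WT value, by 2.67% for the nearest pair. The KO mean was 110% of the WT mean (log2 fold change 0.14, SE 0.0663, 95% interval -0.015 to 0.30, edgeR adjusted p = 0.529). Over every fit run, the adjusted p of Sharpin stayed between 0.349 and 0.767, and leaving out single libraries moved its log2 fold change between 0.11 and 0.18.

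Rnf31 (chromosome 14, 55591708 to 55603693, plus strand), the catalytic subunit gene, was at 29.5, 24.2 and 25.5 CPM in WT and at 25.3, 25.6 and 26.5 CPM in KO libraries. The KO values lay inside the WT range (log2 fold change -0.032, SE 0.0849, edgeR adjusted p = 0.932). WT replicate 1 was the highest of the 6, and without it the fitted value was 0.054. In the annotation 123 exonic bases of Rnf31 also belong to Irf9 on the same strand, and 1.46% of its 50-base sequences occur in other genes. Rbck1 (chromosome 2, 152316334 to 152332653, minus strand) was at 48.8, 56.4 and 52.7 CPM in WT and at 51.9, 51.0 and 53.3 CPM in KO libraries. Its KO values also lay inside the WT range (log2 fold change -0.016, SE 0.0649, adjusted p = 0.960).

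Per length, Rbck1 was the most abundant of the 3 subunits, at 2.52 ± 0.421 times the level of Rnf31 in WT and 2.51 ± 0.0363 times in KO libraries (ratio of FPKM, SD, n = 3 each). The Sharpin to Rnf31 ratio was 1.09, 1.32 and 1.29 in WT and 1.42, 1.45 and 1.27 in KO libraries. KO replicate 3 fell among the WT values, so the groups overlapped (exact two-sided permutation p = 0.3, adjusted p = 0.8 over 8 ratios).

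Cyld (chromosome 8, 88697028 to 88751945, plus strand), the deubiquitinase that opposes LUBAC, was at 46.7, 40.3 and 41.7 CPM in WT and at 39.2, 42.3 and 34.9 CPM in KO libraries. KO replicate 3 was the lowest of the 6 and WT replicate 1 the highest, and KO replicate 2 was above WT replicates 2 and 3. The KO mean was 90.4% of the WT mean (log2 fold change -0.15, SE 0.0899, 95% interval -0.36 to 0.065, edgeR adjusted p = 0.640). Its fitted value was below 0 in each fit that left out 1 library, between -0.22 and -0.075, and passed in none. The Cyld to Rnf31 ratio was 0.743 ± 0.0179 in WT and 0.686 ± 0.0778 in KO libraries (exact permutation p = 0.3, adjusted p = 0.8).

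Map3k14 (chromosome 11, 103219762 to 103267472, minus strand), the gene of NIK, had the lowest level of the 10 and was among the steadiest. It was at 17.2, 16.6 and 16.4 CPM in WT and at 16.1, 16.7 and 15.9 CPM in KO libraries. The groups overlapped (log2 fold change -0.041, 95% interval -0.21 to 0.12, edgeR adjusted p = 0.894), and the coefficient of variation was 2.47% in WT and 2.62% in KO libraries. It shares 135 exonic bases with 1700028N14Rik, which had a count of 0 in every library.

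Traf3, whose product directs NIK to degradation, was at 34.6, 27.9 and 70.7 CPM in WT and at 31.3, 31.4 and 33.6 CPM in KO libraries. WT replicate 3, the library with low Map3k7, had more than double the Traf3 level of any other. The fitted log2 fold change of Traf3 was -0.47 (SE 0.312, edgeR adjusted p = 0.669) with all libraries and 0.040 without that one. The Map3k14 to Traf3 ratio of FPKM was 0.556, 0.668 and 0.260 in WT and 0.577, 0.597 and 0.530 in KO libraries, which overlapped (exact permutation p = 0.8, adjusted p = 1.0).

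Map3k8 (chromosome 18, 4331327 to 4353015, minus strand), the gene of TPL2, fell into 2 levels that crossed the groups. It was at 24.4, 15.8 and 23.7 CPM in WT and at 16.6, 24.5 and 25.1 CPM in KO libraries. WT replicate 2 and KO replicate 1 were low, and the lowest of the other 4 was 1.43 times higher than the upper of these. Their 95% Poisson intervals, 14.9 to 16.7 and 15.7 to 17.6 CPM, did not reach those of the other libraries, whose lowest bound was 22.7 CPM. The coefficient of variation was 22.4% in WT and 21.5% in KO libraries, and the group means were 21.3 ± 4.78 and 22.1 ± 4.74 CPM (SD, n = 3 each). The log2 fold change was 0.052, with a 95% interval of -0.44 to 0.54 (edgeR adjusted p = 0.960). Nfkb1, the gene of its partner p105, was at 106 to 113 CPM in WT and 104 to 110 CPM in KO libraries and showed no such levels.

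**Figure D3:**
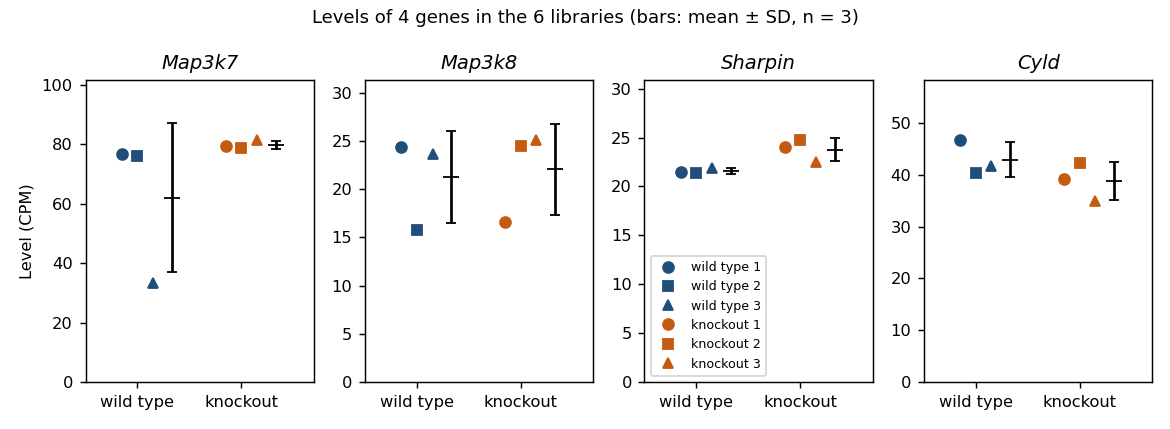
CPM (vertical, from 0) of Map3k7, Map3k8, Sharpin and Cyld in WT (blue) and KO (orange) libraries, with the marker shape giving the replicate number and black bars the mean ± SD of 3 libraries. Map3k7 has 1 WT library at 33.3 CPM, Map3k8 has 1 low library in each group, Sharpin is separated by a narrow margin, and the groups overlap for Cyld.

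A step of at least 1.4-fold between neighbouring libraries, after sorting the 6 values of a gene, was present in 2 of the 10 genes, Map3k7 and Map3k8. The same step was present in 5.47% of the 8226 tested genes of at least 10 CPM. The size of the step was chosen after the values of Map3k7 and Map3k8 had been seen, so their count is a description. Leaving these 2 genes aside, the largest step of any member was 1.12-fold, in Cyld.

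**Figure D4:**
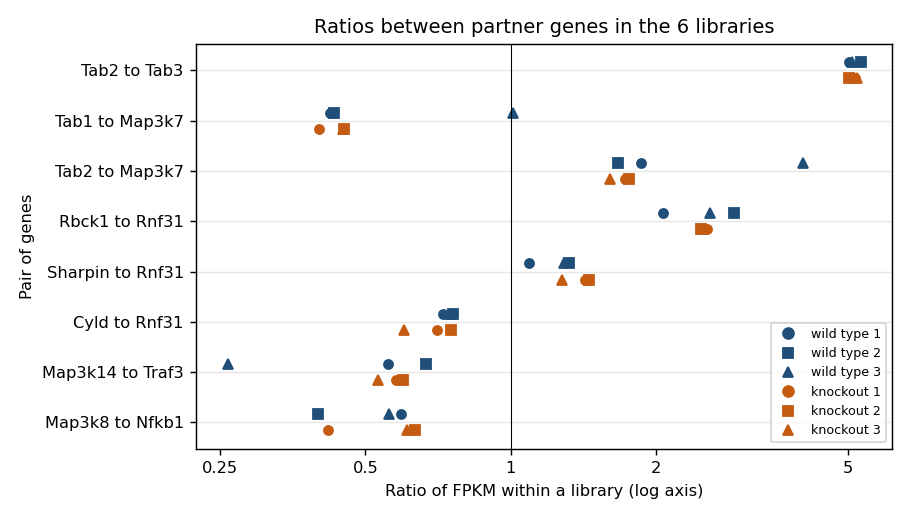
Ratio of FPKM between partner genes within each library (horizontal, log axis) for 8 pairs (vertical), WT in blue and KO in orange, with the marker shape giving the replicate number. The Tab2 to Tab3 ratio stays between 5.01 and 5.31, while the ratios to Map3k7 and Traf3 each have WT replicate 3 apart from the rest.

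Of 8 ratios compared between the groups, none separated them, and the smallest exact permutation p was 0.3, where 3 against 3 libraries cannot give less than 0.1. The Tab1 to Map3k7 ratio was 0.421, 0.430 and 1.01 in WT and 0.400, 0.451 and 0.449 in KO libraries. The Tab2 to Map3k7 ratio was 1.86, 1.67 and 4.03 in WT and 1.72, 1.76 and 1.61 in KO libraries. Both ratios were high in WT replicate 3, where Map3k7 was low and Tab1 and Tab2 were not. The Map3k8 to Nfkb1 ratio was 0.516 ± 0.104 in WT and 0.553 ± 0.118 in KO libraries (exact permutation p = 0.5, adjusted p = 0.96).

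The wider pathway was described with 8 lists that hold 66 genes, of which 64 were tested. EdgeR called 0 of the 64 over all tested genes and gave 14 an unadjusted p under 0.05, 10 lower and 4 higher in KO, where 10.4% of all tested genes had one. DESeq2 called 4, Nfkb2, Relb, Traf2 and Tnip1, all lower, where it called 3.77% of the genes to which it gave an adjusted p. The groups did not overlap for 14 of the 64, 9 lower and 5 higher in KO, against 8.89% lower and 8.68% higher over all tested genes. The genes named in this and the next 4 paragraphs beyond the 2 most abundant of each list were chosen after their values were seen.

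The non-canonical arm had the lowest median of the 8 lists, at -0.30 over 7 tested genes. Of the 7, 6 were below 0, where 50.5% of all tested genes were. Traf3 was among the 6, at -0.47 with all libraries and at 0.040 without WT replicate 3. The median of the list without that library was not computed. Nfkb2, which encodes the p100 precursor that NIK signalling processes, was at 114, 107 and 114 CPM in WT and at 92.1, 86.2 and 90.1 CPM in KO libraries. Each KO value was below each WT value, with a log2 fold change of -0.32 (SE 0.0498, edgeR adjusted p = 0.080, DESeq2 adjusted p = 3.1e-05). Relb, whose product pairs with p52, was at 46.1, 46.2 and 45.7 CPM in WT and at 39.0, 37.2 and 35.7 CPM in KO libraries, again without overlap. Its log2 fold change was -0.30 (SE 0.0556, edgeR adjusted p = 0.110, DESeq2 adjusted p = 0.0019). The difference between these changes and that of Map3k14 was not tested. The neutrophil, T cell, dendritic cell, and fibroblast and mesothelial marker sums were also lower in every KO library, at the values given above. The macrophage sum was lower only with Lyz2 included, and overlapped without it. The B cell sum was higher in every KO library, and the mast cell sums of the groups overlapped. The part of these cells in the Nfkb2 and Relb levels was not tested. Tnfrsf1b and Ltbr, the most abundant of the list, encode receptors of the TNF family and were at 1585 and 79.6 CPM in WT and at 1486 and 77.0 CPM in KO libraries (edgeR adjusted p = 0.161 and 0.798).

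Among 16 receptor-proximal adaptors and ubiquitin enzymes, 10 were below 0 and 3 were lower in KO without overlap, Traf2, Traf5 and Birc3. Of all tested genes 50.5% were below 0 and 8.89% were lower in KO without overlap. Traf2, an adaptor that recruits ubiquitin ligases to the TNF receptor, was at 47.5 ± 3.18 CPM in WT and 38.8 ± 0.786 CPM in KO libraries (SD, n = 3 each), with an edgeR adjusted p = 0.161 and a DESeq2 adjusted p = 0.011. Tnfrsf1a, the gene of TNF receptor 1, was at 151 and 141 CPM (edgeR adjusted p = 0.624). Ube2l3, an E2 enzyme that works with HOIP, was at 93.2, 48.6 and 103 CPM in WT and at 51.4, 51.1 and 48.1 CPM in KO libraries. WT replicate 2 was at the KO level, so the groups overlapped (edgeR adjusted p = 0.373). Without WT replicate 2 Ube2l3 passed with an edgeR adjusted p = 0.0094, the 1 pathway gene to pass edgeR in any fit that left out a library. That fit called 24 genes, against 11 with all libraries. Since it left out the WT library at the KO level, this call is a description and no evidence of a difference. Ube2v1, a cofactor for lysine-63-linked chains, had 1 low library, WT replicate 2 at 35.5 CPM against 81.3 to 106 CPM in the others.

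The 3 genes of the IKK complex, which TAK1 activates, had log2 fold changes between -0.057 and 0.082, and their groups overlapped. Ikbkg and Chuk were at 168 and 67.7 CPM in WT and at 168 and 71.6 CPM in KO libraries. In the MAP kinase cascade below TAK1 and TPL2, 11 of 12 genes were tested and Map2k6, with 4 to 25 counts per library, was not. The groups did not overlap for Map2k4 and Mapk8, both higher in KO, and for Map2k2 and Mapk9, both lower. Of all tested genes 8.68% were higher and 8.89% lower in KO without overlap. Mapk8, which encodes JNK1, was at 15.3, 14.3 and 15.3 CPM in WT and at 19.3, 18.5 and 16.1 CPM in KO libraries (log2 fold change 0.26, SE 0.0908, edgeR adjusted p = 0.370). Map2k4, the gene of a kinase above JNK, was at 59.7 ± 2.97 and 66.6 ± 1.28 CPM (adjusted p = 0.363). Mapk3 and Map2k1, the most abundant, were at 111 and 96.6 CPM in WT and at 118 and 91.7 CPM in KO libraries. Among 8 other MAP3 kinases the range of log2 fold changes was -0.027 to 0.12. The groups did not overlap for Map3k2 alone, at 93.0, 82.7 and 96.7 CPM in WT and at 100, 97.6 and 98.4 CPM in KO libraries (edgeR adjusted p = 0.569). Map3k3 and Map3k11, the most abundant, were at 89.5 and 53.0 CPM in WT and at 91.2 and 52.2 CPM in KO libraries.

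Of 10 deubiquitinases and ubiquitin-binding partners, Tnip1 was lower in KO without overlap, and Usp4 and Tax1bp1 were higher. The shares over all tested genes were 8.89% lower and 8.68% higher. Tnip1, which encodes the A20-binding protein ABIN1, was at 171, 156 and 163 CPM in WT and at 139, 139 and 142 CPM in KO libraries (log2 fold change -0.23, SE 0.0455, edgeR adjusted p = 0.131, DESeq2 adjusted p = 0.0032). Otulin, the deubiquitinase specific for linear chains, was at 28.3 ± 3.64 and 29.3 ± 4.88 CPM, and Spata2, which links CYLD to LUBAC, at 28.0 ± 0.931 and 27.2 ± 0.603 CPM, with overlapping groups for both. Tax1bp1, the most abundant together with Tnip1, was at 434 and 458 CPM (edgeR adjusted p = 0.459). Tnfaip3, the gene of A20, was at 222, 201 and 109 CPM in WT and at 98.2, 188 and 202 CPM in KO libraries, with 1 low library in each group, WT replicate 3 and KO replicate 1, the second of which was also low for Map3k8. Among 7 phosphatases and other genes linked to TAK1 no gene had separated groups, where 17.6% of all tested genes had. Ppp6c and Trim8, the most abundant of these 7, were at 71.5 and 48.2 CPM in WT and at 71.3 and 46.7 CPM in KO libraries. The TPL2 partners Nfkb1 and Tnip2 were at 110 and 23.8 CPM in WT and at 107 and 21.8 CPM in KO libraries, where Tnip2 had KO replicate 3 at 14.8 CPM against 23.0 CPM or more in every other library.

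A step of at least 1.4-fold between neighbouring libraries was present in 8 of the 60 pathway genes of at least 10 CPM, namely Ube2v1, Ube2l3, Map2k3, Map2k7, Mapk14, Traf3, Tnip2 and Tnfaip3, against 5.47% of all such genes. Mapk14, the gene of p38α, was at 61.8, 130 and 40.0 CPM in WT and at 49.6, 61.5 and 46.0 CPM in KO libraries, with WT replicate 2 at more than double any other library. Its log2 fold change was -0.56 (SE 0.384, edgeR adjusted p = 0.682) and was 0.041 without WT replicate 2. The direction fitted for Mapk14, Traf3, Map2k3, Tnip2 and Tnfaip3 changed when 1 library was left out.

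**Figure D5:**
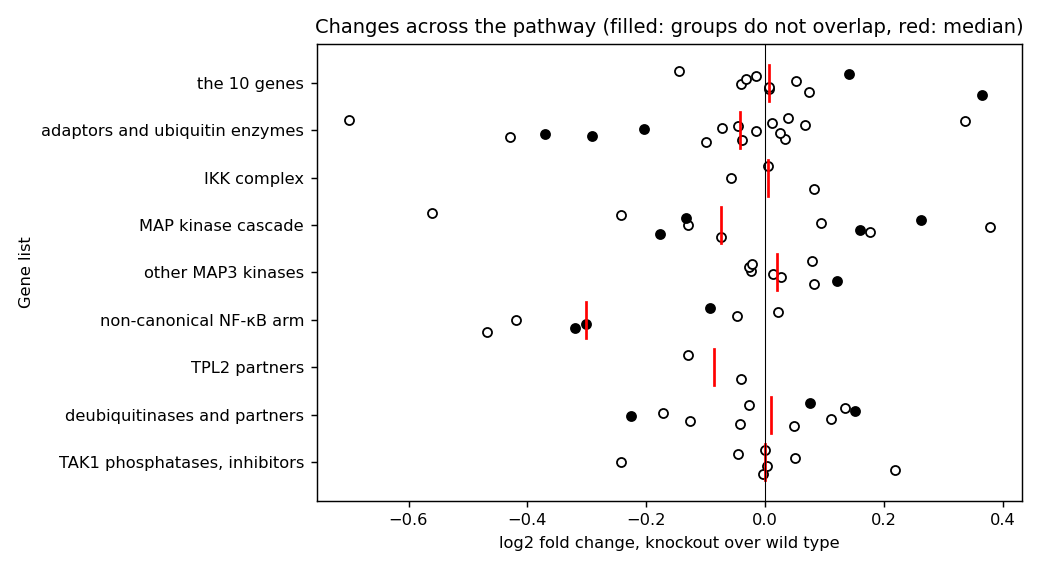
Fitted log2 fold change of KO over WT (horizontal) for each tested gene of the 10 genes and of the 8 pathway lists (vertical), where filled points have groups that do not overlap and red lines mark medians. The median of the 10 genes is 0.0057 and that of the non-canonical arm is -0.30, with Nfkb2, Relb and Tnfrsf1b as its filled points. Its open points include Traf3, whose fitted value was 0.040 without WT replicate 3. The list labelled as TAK1 phosphatases and inhibitors also holds other genes linked to TAK1.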

How the data were processed

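Poly(A) RNA of 6 libraries was sequenced as paired ends, per the labels' protocols. The submitters' processing notes name HISAT2 2.0 as a tool. Which counter, annotation or build was used is not given in the sources used here. Counts are whole numbers per gene as deposited, and the FPKM columns, per the file headers, were scaled by the authors for length and depth. The 12 per-sample columns that fit no sample's title were left out. All 10 genes have the same coordinates in GENCODE M21 (GRCm38), and CPM divided by FPKM was 1.11 to 1.12 times their exon length there. Counts of 16239 genes kept by filterByExpr were scaled by TMM and tested two-sided with edgeR 4.0.16 (R 4.3.3), using the quasi-likelihood test and a design of genotype alone. The Benjamini-Hochberg adjustment ran over all tested genes, with calls at 0.05. Ratios used an exact permutation test. Alternatives were RLE factors, no filter, DESeq2 1.42.0, limma 3.58.1 on log2(FPKM + 1) or log2(FPKM + 0.1) for genes that reached an FPKM of 1 in 3 libraries, voom with sample weights, a replicate block and leaving out each library. The fit was tested on simulated data. Members and lists were chosen with earlier results of these data known. By rule the named genes were the 10 members, Dclk1, the genes of each ratio and, per list, any gene called and the 2 most abundant by FPKM; other pathway genes were named after their values were seen. Intervals are at 95%, and those on counts cover counting error only.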

Additional observations from a re-analysis of the deposited data

How the results depend on the processing

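Over 13 alternatives no member was called, with adjusted p of 0.349 or more. Of 130 fitted member values 120 kept their direction, and the 10 that reversed came from leaving out single libraries. The log2 fold changes over those fits ran from -0.036 to 0.051 for Tab2, -0.059 to 0.069 for Tab3, -0.12 to 0.22 for Map3k8, -0.090 to 0.054 for Rnf31 and -0.068 to 0.036 for Rbck1. Among log2 differences of ratios, 7 of 56 reversed, all without 1 library, with ranges of -0.019 to 0.023 for Tab2 to Tab3, -0.61 to 0.024 for Tab1 to Map3k7, -0.12 to 0.12 for Rbck1 to Rnf31, -0.10 to 0.58 for Map3k14 to Traf3 and -0.080 to 0.29 for Map3k8 to Nfkb1. Tab1 to Map3k7 and Map3k14 to Traf3 reversed only without wild-type replicate 3. The cause was not tested. The 11 calls over all genes became 7 without a filter, 457 with DESeq2, 7 with limma on log2(FPKM + 0.1), 22 with sample weights and 7 to 35 when single libraries were left out. Pathway calls rose from 0 to 4 with DESeq2 and were 0 to 1 over the fits without 1 library. The member median was -0.041 to 0.057 over those fits. The groups did not overlap for 2 members, or for 4 without KO replicate 1 or KO replicate 2. With 1 library fewer, groups separate more easily, and the share over all genes was not computed for those fits. These counts therefore cannot be set against the 17.6% found with all libraries. Same-numbered libraries of the groups deviated together only weakly (correlations 0.040, 0.050 and 0.015), each best with its own number, and with the replicate block 3 genes and none of the members were called. For these genes counting error is 2.94% at most.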
